A study of Homo sapiens with 18 samples.

Results

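The translesion synthesis polymerases and their partners were followed on 18 one-colour Agilent human arrays through 8 genes, POLH, POLI, POLK, POLQ, REV1, REV3L, MAD2L2 and RAD18. A gene was taken as present where a spot that is not a control carried its name in the array annotation, which gave 20 of the 58717 such spots on an array, 11 of the 50599 probes and 8 of the 36204 gene names. RNA came from HT29, a colorectal cancer cell line that is sensitive to oxaliplatin (OXA), and from HTOXAR3, its subline made resistant by continuous exposure to rising OXA doses, and each line had 3 groups of 3 arrays labelled as biological replicates. The groups were untreated cells (vehicle in the study's account), cells after 24 h of OXA, and cells after 24 h of OXA together with 10 µM Curcumin. OXA was used at 10 µM in HT29 and at 30 µM in HTOXAR3, so a difference between the lines in a response cannot be told apart from the difference in dose. Resistance is represented by a single subline, and no group received Curcumin alone.

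When the replicative polymerases stall at a DNA lesion such as a platinum crosslink, the sliding clamp PCNA is tagged with ubiquitin by the ligase RAD18 and its partner enzymes UBE2A and UBE2B. The tagged clamp recruits polymerases with a roomy active site, namely polymerase eta (POLH), iota (POLI), kappa (POLK) and the scaffold REV1, which insert a base opposite the lesion. Polymerase zeta, made of the catalytic subunit REV3L and the adaptor MAD2L2 (also called REV7) with POLD2 and POLD3, then extends from it. MAD2L2 also serves the shieldin complex at broken ends, and polymerase theta (POLQ) joins ends by short homologies as well as bypassing lesions.

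Values are log2 intensities after background correction and quantile normalization, and a gene with several probes is represented by its brightest. Levels of different probes are not comparable with each other, so every comparison below is made within a probe. A change was called where limma's Benjamini-Yekutieli (BY) adjusted p over all gene names was below 0.05 and the fold change above 1.2. All 8 representative probes were well above background on all 18 arrays. The share of spots well above background was between 52.4% and 63.6% on each array, and arrays of a group correlated at 0.985 or more. Of 12 colorectal epithelium markers, 8 were well above background on all 18 arrays, among them EPCAM, KRT8, KRT18, KRT19, KRT20 and VIL1, while CDX2 was so on 9 HT29 arrays and 1 HTOXAR3 array. None of 6 fibroblast markers and 2 of 4 endothelial markers (VWF, CDH5) were well above background on all 18 arrays, and so were PTPRC and CD14 among the leukocyte markers. The log2 level of CD14 was between 10.2 and 11.5, and the part of such transcripts in the results was not tested.

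The 4 members with a called change after OXA are shown by the array probes that read them, written 5′ to 3′ in lower case as on the array. The MAD2L2 probe A_23_P23206 lies on chr1:11735163-11735222 (GRCh37, minus strand) at base 698 of the transcript named in the annotation and is shown in full. It has a reading frame without a stop over its whole length, as the POLK and RAD18 probes also have. The first 30 bases are shown of the POLH probe A_32_P96692 (chr6:43588198-43588257, plus strand), of the POLK probe A_23_P386450 (chr5:74894691-74894750, plus strand) and of the RAD18 probe A_23_P121222 (chr3:8921634-8921693, minus strand). No exon or UTR annotation of GRCh37 was used here, so these positions are given by transcript only: base 8349 for POLH, 3556 for POLK and 2925 for RAD18.
MAD2L2 probe: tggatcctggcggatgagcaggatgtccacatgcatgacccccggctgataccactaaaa
POLH probe: ctgagcctgtagctaacgcataagcacagt
POLK probe: tgtgaaagaagacagcttaatagtagttag
RAD18 probe: gagcatgtcaaacaaaataggagctcacat

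RAD18, the ligase that starts the pathway, rose after OXA in both lines. In HT29 its log2 intensity was 9.57, 9.63 and 9.52 in the untreated replicates and 10.23, 10.20 and 10.20 after OXA. In HTOXAR3 it was 9.42, 9.44 and 9.32 untreated and 10.30, 10.23 and 10.02 after OXA. The treated and untreated arrays did not overlap in either line, as was the case for 34.6% of all gene names in HT29 and 34.3% in HTOXAR3. The log2 change was 0.64 in HT29 (SE 0.07, 1.56-fold, adjusted p = 0.000168) and 0.79 in HTOXAR3 (SE 0.07, 1.73-fold, adjusted p = 5.3e-05). The probe is printed 10 times on each array, and the standard deviation over those spots was between 0.0554 and 0.219, with 4 of 180 spots left out for an outlier flag on 2 arrays. In bulk RNA such as this, a change in the share of cells that hold a transcript and a change in its amount per cell cannot be told apart.

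MAD2L2, the adaptor shared by polymerase zeta and shieldin, rose with OXA to a similar extent on its main probe. Untreated HT29 replicates read 10.90, 10.82 and 10.86, and 11.54, 11.46 and 11.57 after OXA. Untreated HTOXAR3 replicates read 10.84, 10.81 and 10.88, and 11.35, 11.46 and 11.35 after OXA. Here too the groups did not overlap, with a log2 change of 0.66 in HT29 (SE 0.07, 1.58-fold, adjusted p = 7.1e-05) and 0.54 in HTOXAR3 (SE 0.07, 1.46-fold, adjusted p = 0.000878). The gene has a pair of further, dimmer probes for other annotated transcripts, and neither changed past the threshold with OXA. On A_33_P3359250 the log2 change was 0.14 (SE 0.17) in HT29 and 0.28 (SE 0.17) in HTOXAR3, and on A_33_P3359253 it was −0.24 (SE 0.14) in HT29. In untreated HTOXAR3 A_33_P3359253 was well above background on 0 of 3 arrays, so its level after OXA is given only as at least 1.17-fold higher there, counting each untreated array at its lowest signal well above background (the fit on measured values gave an adjusted p of 0.116). Averaging all 3 probes ended the call in HT29, with a log2 change of 0.19, so the MAD2L2 rise there rests on the brightest probe. In HTOXAR3 the average kept its call, but it includes A_33_P3359253, which was not well above background in untreated cells. The brightest probe was the only one called on its own in HTOXAR3 too.

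POLK, an inserter polymerase that is also known for extension past mispaired ends, was the third member to rise after OXA in both lines. Its levels went from 9.90, 10.06 and 9.99 to 10.38, 10.61 and 10.54 in HT29. They went from 9.97, 9.97 and 9.84 to 10.52, 10.42 and 10.37 in HTOXAR3. No treated array fell within the untreated range, and the log2 changes were close to each other, at 0.52 (SE 0.07, 1.44-fold, adjusted p = 0.00105) and 0.51 (SE 0.07, 1.42-fold, adjusted p = 0.00251). The difference of the lines in this response was −0.02, with a 95% interval from −0.24 to 0.21.

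POLH, the polymerase with a known part in bypass of platinum crosslinks, went the other way. HT29 read 7.68, 7.73 and 7.64 untreated and 6.97, 7.24 and 7.05 after OXA. HTOXAR3 read 8.10, 8.20 and 8.08 untreated and 7.97, 7.84 and 7.82 after OXA. The groups did not overlap in either line. In HT29 POLH fell by 0.60 on the log2 scale (SE 0.08, 1.51-fold, adjusted p = 0.000421), whereas in HTOXAR3 the change was −0.25 (SE 0.08, adjusted p = 0.412) and was not called. The difference between these responses was 0.35 (95% interval 0.12 to 0.58, adjusted p = 1), so the lines were not shown to differ. The dimmer POLH probe A_23_P422718, well above background on 14 of 18 arrays, changed by −0.19 (SE 0.15) in HT29 and −0.14 (SE 0.15) in HTOXAR3 without being called.

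**Figure D1:**
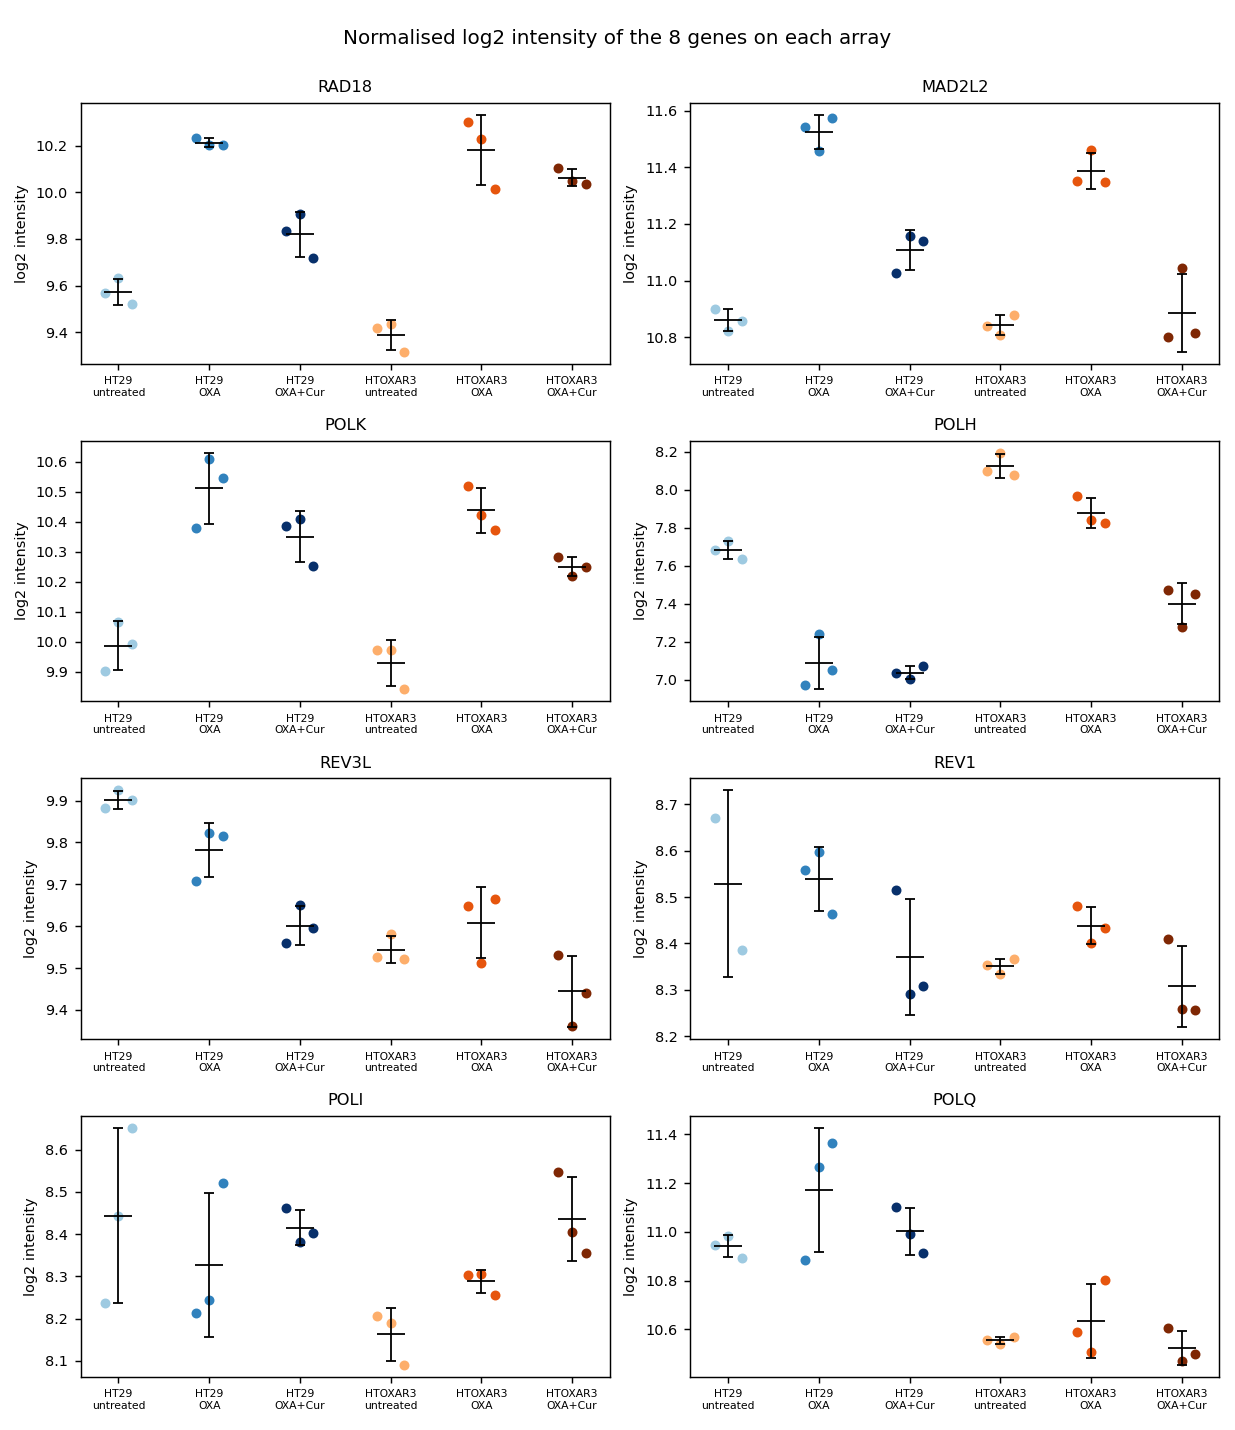
Normalised log2 intensity (vertical axes, each with its own range) of the 8 genes in the 6 groups, with a point for each array and a black line and bars for the mean and SD. RAD18, MAD2L2 and POLK lie higher after OXA than in untreated cells of either line, POLH lies lower after the combination, and REV1 has 2 points in untreated HT29.

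In all, OXA changed 4 of the 8 genes in HT29, where 15.9% of 36204 gene names were called, and 3 of 8 in HTOXAR3, where 10.2% were called. In each line 3 rose (8.33% and 5.31% of all names rose), and POLH was the single member called lower, in HT29. The median log2 change over the members was 0.12 in HT29 and 0.11 in HTOXAR3, against −0.01 and 0.01 over all names. The remaining members had no called change after OXA, although some were separated from untreated cells. REV3L, the catalytic subunit of polymerase zeta, changed by −0.12 (SE 0.06) in HT29 and 0.06 (SE 0.06) in HTOXAR3, and its untreated and treated arrays in HT29 did not overlap (9.88, 9.92 and 9.90 against 9.71, 9.82 and 9.82). In HTOXAR3 the treated arrays of POLI (8.30, 8.31 and 8.26 against 8.21, 8.19 and 8.09) and REV1 (8.48, 8.40 and 8.43 against 8.35, 8.33 and 8.37) also lay above the untreated ones. REV1 changed by 0.01 and 0.09, POLI by −0.12 and 0.13 and POLQ by 0.23 and 0.08, none with an adjusted p below 1. The intervals leave room for moderate changes, from −0.0036 to 0.46 for POLQ in HT29. With an array left out in turn, the HT29 change was between 0.13 and 0.37 for POLQ and between −0.22 and −0.013 for POLI.

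Adding Curcumin to OXA lowered MAD2L2 in both lines. In HT29 the combination arrays read 11.03, 11.16 and 11.14, below all OXA arrays and above all untreated arrays. In HTOXAR3 they read 10.80, 11.04 and 10.81, below all OXA arrays and overlapping the untreated arrays. Against OXA alone MAD2L2 fell by 0.42 in HT29 (SE 0.07, 1.34-fold, adjusted p = 0.0138) and by 0.50 in HTOXAR3 (SE 0.07, 1.42-fold, adjusted p = 0.00207). Against untreated cells the combination left MAD2L2 at 0.25 in HT29 (SE 0.07, adjusted p = 0.178) and 0.04 in HTOXAR3 (SE 0.07, adjusted p = 1), and neither was called. The HT29 call was lost when combination replicate 1, OXA replicate 1 or OXA replicate 3 was left out, with values of −0.38, −0.41 and −0.39 and adjusted p-values between 0.0346 and 0.0893 over the 6 arrays. The mean of all 3 probes gave −0.17 in HT29 and −0.22 in HTOXAR3, neither of them called.

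RAD18 also fell on adding Curcumin in HT29 and was not called in HTOXAR3. The HT29 combination arrays read 9.83, 9.91 and 9.72, between the untreated and the OXA arrays without overlap. The HTOXAR3 combination arrays read 10.10, 10.05 and 10.03, which overlapped the OXA arrays and stood apart from untreated cells. The change against OXA was −0.39 in HT29 (SE 0.07, adjusted p = 0.0311) and −0.12 in HTOXAR3 (SE 0.07, adjusted p = 1), and the difference of these changes was not called (0.27, adjusted p = 1). The HT29 call held only when combination replicate 2 was the array left out. Without combination replicate 1 or 3 the values were −0.40 and −0.34, without OXA replicate 1, 2 or 3 they were −0.38, −0.40 and −0.40, and the adjusted p over the 6 was between 0.0492 and 0.159. Against untreated cells the combination left RAD18 0.25 higher in HT29 (SE 0.07, adjusted p = 0.252) and 0.67 higher in HTOXAR3 (SE 0.07, 1.59-fold, adjusted p = 9.8e-05), of which the second was called.

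POLH behaved differently from these in the comparison with OXA. The combination arrays read 7.03, 7.01 and 7.07 in HT29, overlapping the OXA arrays, and 7.48, 7.28 and 7.45 in HTOXAR3, below all OXA arrays. The change on adding Curcumin was −0.05 in HT29 (SE 0.08) and −0.48 in HTOXAR3 (SE 0.08, 1.39-fold, adjusted p = 0.00615). The difference of these changes was −0.43 (95% interval −0.66 to −0.19), with an adjusted p of 1, and was not called. Against untreated cells POLH fell with the combination in both lines, by 0.65 in HT29 (SE 0.08, 1.56-fold, adjusted p = 0.00017) and by 0.72 in HTOXAR3 (SE 0.08, 1.65-fold, adjusted p = 6.4e-05). The dimmer probe changed by −0.16 and −0.32 (SE 0.15 each) in the same comparisons, without a call. On adding Curcumin in HTOXAR3 it changed by −0.18 (adjusted p = 1), and averaging both probes ended the POLH call there (−0.33, adjusted p = 0.0673).

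POLK stayed above untreated cells under the combination. Its arrays read 10.39, 10.41 and 10.25 in HT29 and 10.28, 10.22 and 10.25 in HTOXAR3, above every untreated array of the same line. The log2 change was 0.36 in HT29 (SE 0.07, adjusted p = 0.0193) and 0.32 in HTOXAR3 (SE 0.07, adjusted p = 0.0498). The HTOXAR3 call sat at the threshold. It was lost without any 1 of the 6 arrays (log2 change between 0.28 and 0.34, adjusted p between 0.108 and 0.284), with the replicate number as a block (adjusted p = 0.0599) and when each gene's probes were averaged (adjusted p = 0.0533). The HT29 call was lost without untreated replicate 1 (0.32) or 3 (0.37) or combination replicate 1 (0.34) or 2 (0.33), the adjusted p over the 6 arrays being between 0.019 and 0.122.

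REV3L fell with the combination in HT29, from 9.88, 9.92 and 9.90 to 9.56, 9.65 and 9.59, a log2 change of −0.30 (SE 0.06, 1.23-fold, adjusted p = 0.0188). In HTOXAR3 it read 9.53, 9.36 and 9.44 under the combination against 9.53, 9.58 and 9.52 untreated, with overlap and a change of −0.10 (SE 0.06, adjusted p = 1). The HT29 call was kept without combination replicate 2 and lost without any other array. Without untreated replicate 1, 2 or 3 the change was −0.31, −0.29 and −0.30, without combination replicate 1 or 3 it was −0.28 and −0.30, and the adjusted p over the 6 arrays was between 0.0392 and 0.0982.

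By count, the combination changed 3 members in HT29 (POLK up, POLH and REV3L down), where 18.6% of names were called, and 3 in HTOXAR3 (POLK and RAD18 up, POLH down), where 17.5% were called. Adding Curcumin to OXA lowered 2 members in each line, where 5.53% and 8.83% of names were called (2.39% and 4.41% lower). Arrays of the groups compared did not overlap for 38.8% and 38.2% of all names under the combination and for 26.3% and 31.9% on adding Curcumin. MAD2L2 was in both pairs, with RAD18 in HT29 and POLH in HTOXAR3. The median change of the members on adding Curcumin was −0.17 in HT29 and −0.15 in HTOXAR3, against −0.02 and −0.02 over all names. The comparisons of a line share arrays (untreated arrays serve both responses, OXA arrays serve the OXA response and the addition of Curcumin), so a high OXA group raises the first and lowers the second by construction. REV1, POLI and POLQ had no called change in any of these comparisons, and the largest of theirs was 0.27 for POLI under the combination in HTOXAR3 (95% interval 0.06 to 0.49, adjusted p = 0.713).

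The arrays lie on 3 slides, of 2, 8 and 8 arrays. All 19 member changes called in the untreated, OXA, combination and Curcumin comparisons had the same direction on every slide that held both groups. The groups compared did not overlap in any of these 19, which fixes the direction within a slide, so this is no check on the slides. After OXA the within-slide log2 change of RAD18 was between 0.57 and 0.68 in HT29 and between 0.81 and 0.87 in HTOXAR3. That of MAD2L2 was between 0.64 and 0.71 and between 0.53 and 0.53, that of POLK between 0.48 and 0.55 and between 0.55 and 0.56, and that of POLH in HT29 between −0.71 and −0.49. On adding Curcumin, MAD2L2 changed by −0.43 and −0.37 on the 2 slides in HT29 and by −0.55 and −0.48 in HTOXAR3.

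**Figure D2:**
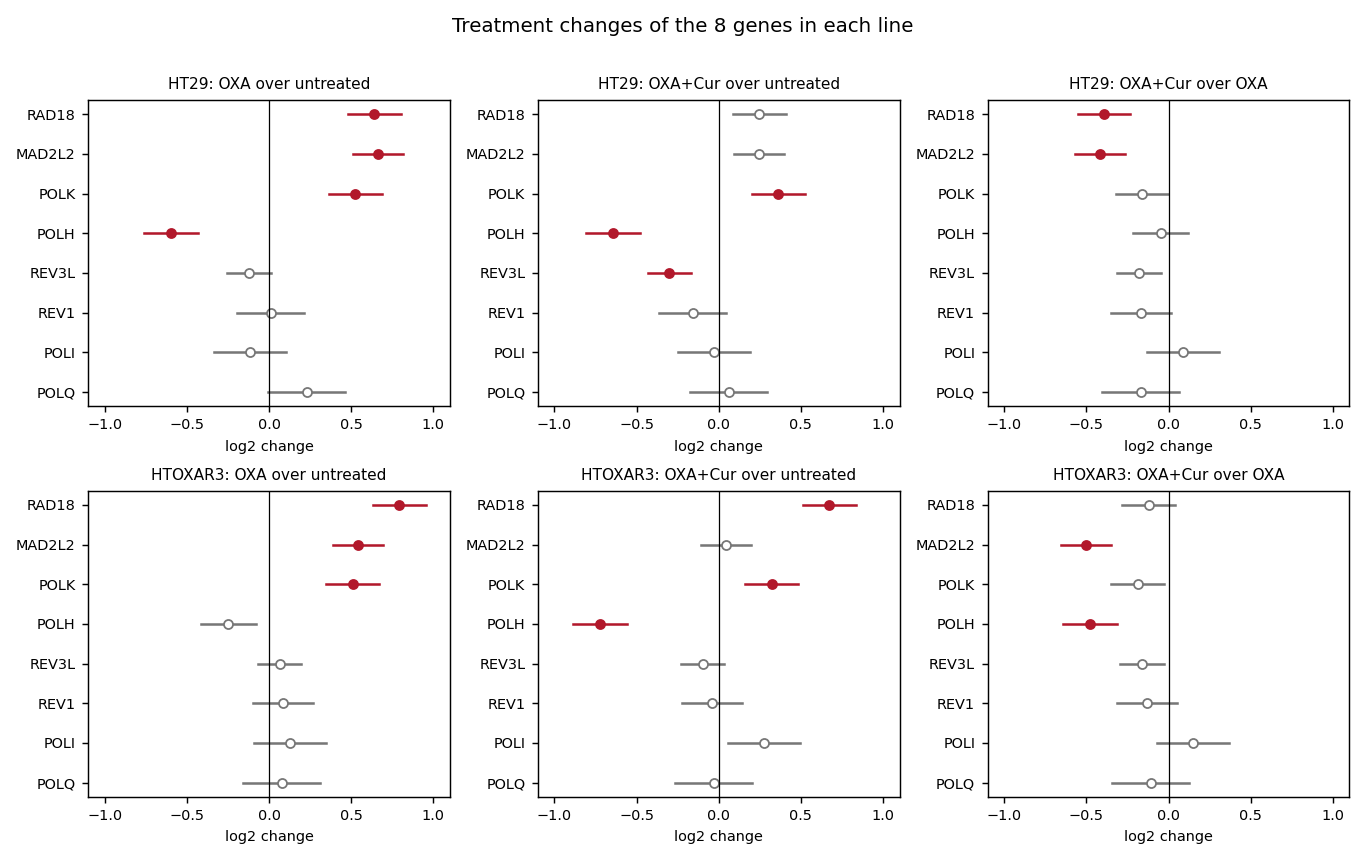
Log2 change of each gene (horizontal axis) with its 95% interval from the limma fit, for OXA over untreated, the combination over untreated and the combination over OXA (columns) in HT29 and HTOXAR3 (rows), with filled red points for called changes. RAD18, MAD2L2 and POLK lie to the right in both OXA panels, and MAD2L2 lies to the left in both panels of the combination over OXA, at −0.42 and −0.50.

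Before treatment the lines differed in 2 of the 8 genes, where 11.5% of names were called. POLH read 8.10, 8.20 and 8.08 in HTOXAR3 and 7.68, 7.73 and 7.64 in HT29, a log2 difference of 0.44 (SE 0.08, 1.36-fold, adjusted p = 0.00793). Without the second untreated HTOXAR3 replicate it was 0.41 and was not called, the adjusted p over the 6 arrays being between 0.0242 and 0.0554. The dimmer POLH probe, well above background on 1 of 3 untreated HT29 and 2 of 3 untreated HTOXAR3 arrays, read 0.44 (SE 0.15, adjusted p = 0.561) and was not called. REV3L was lower in HTOXAR3, at 9.53, 9.58 and 9.52 against 9.88, 9.92 and 9.90, a difference of −0.36 (SE 0.06, 1.28-fold lower, adjusted p = 0.00712).

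POLQ was also lower in HTOXAR3 without overlap (32.6% of all names were so separated), at 10.56, 10.54 and 10.57 against 10.95, 10.98 and 10.89, but its difference of −0.39 (SE 0.11) had a BY adjusted p of 0.232. It passed under the Benjamini-Hochberg adjustment (0.0209), by which 17% of names were called. POLI differed by −0.28 (SE 0.10, adjusted p = 0.799), RAD18 by −0.18 (SE 0.07), REV1 by −0.18 (SE 0.09), POLK by −0.06 (SE 0.07) and MAD2L2 by −0.02 (SE 0.07), the latter 4 with an adjusted p of 1. POLI, RAD18 and REV1 were separated without overlap as well, so 6 of the 8 members were, against 32.6% of all names. REV1 had 2 untreated HT29 arrays, since its spot on the first was left out for an outlier flag, and these read 8.67 and 8.39. With an array left out in turn, the REV1 difference was between −0.32 and −0.036 and that of POLI between −0.38 and −0.18. The third MAD2L2 probe, A_33_P3359253, was well above background on all 3 untreated HT29 arrays and on 0 of 3 untreated HTOXAR3 arrays. It was at least 1.36-fold lower in HTOXAR3, set against the lowest signal well above background where that was the higher. The fit on the measured values, and not this bound, gave an adjusted p of 0.0105 over all probes.

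**Figure D3:**
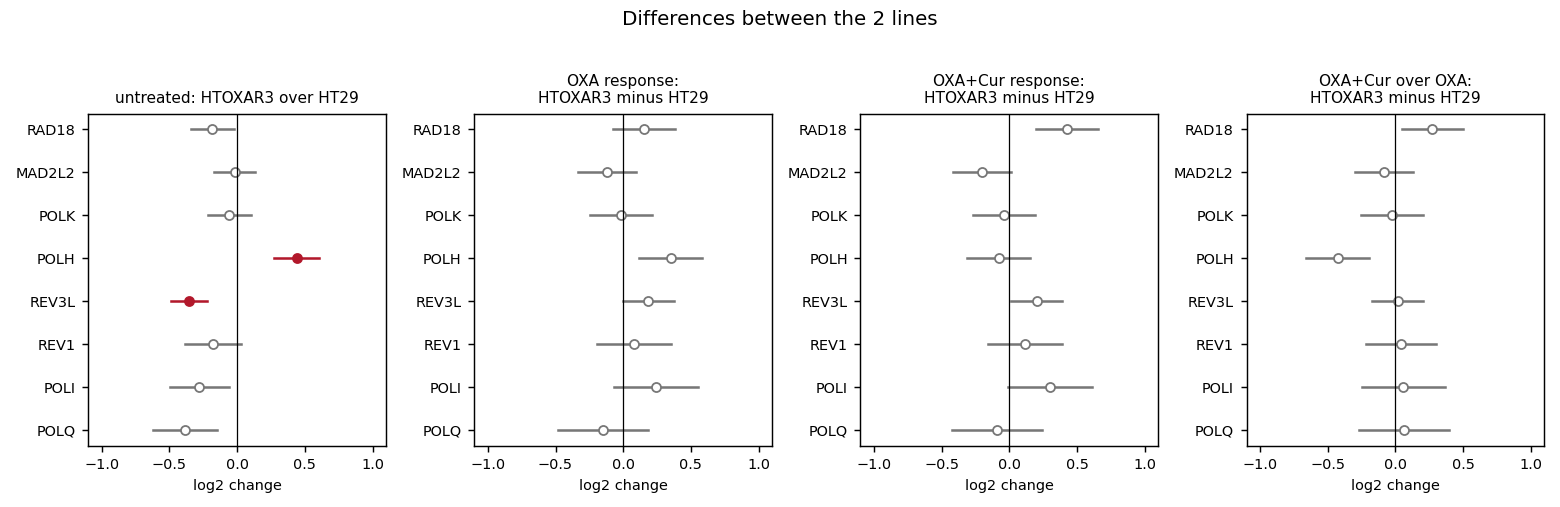
Log2 difference between HTOXAR3 and HT29 with its 95% interval for the 8 genes, in untreated cells (left) and in the 3 responses to treatment (change in HTOXAR3 minus change in HT29), with filled red points for called differences. POLH (0.44) and REV3L (−0.36) were called in untreated cells, and no gene was called in the 3 panels of responses.

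The responses themselves were compared between the lines by interaction terms. By limma with the BY adjustment 0 of 8 members were called for OXA (1.01% of names called), for the combination (0.856%) and for the addition of Curcumin (0.135%). At an unadjusted p below 0.05 the counts were 1, 2 and 2, where 13.7%, 14.4% and 9.74% of names passed, and by the Benjamini-Hochberg adjustment 0, 1 and 0, where 3%, 3.44% and 0.892% of names passed. The one that passed by the latter was RAD18 under the combination, which rose by 0.43 more in HTOXAR3 (SE 0.11, 95% interval 0.20 to 0.65, Benjamini-Hochberg adjusted p = 0.0428, BY 0.474). For MAD2L2 the intervals of the difference ran from −0.33 to 0.10 for OXA and from −0.30 to 0.13 for the addition of Curcumin.

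The order of the 6 groups differed among the members. POLH ran from untreated HTOXAR3 (8.12 ± 0.06, SD, n = 3) through HTOXAR3 after OXA (7.88 ± 0.08), untreated HT29 (7.68 ± 0.05) and HTOXAR3 after the combination (7.40 ± 0.11) to HT29 after OXA (7.09 ± 0.14) and after the combination (7.04 ± 0.03), and only the last 2 overlapped. RAD18 was highest in HT29 after OXA (10.21 ± 0.02) and in HTOXAR3 after OXA (10.18 ± 0.15), which overlapped, and lowest in untreated HTOXAR3 (9.39 ± 0.06), which stood apart from untreated HT29 (9.57 ± 0.06). MAD2L2 was highest in the 2 OXA groups (11.52 ± 0.06 and 11.39 ± 0.06), which stood apart from the other 4. POLK had both untreated groups at the bottom (9.99 ± 0.08 and 9.93 ± 0.08), overlapping each other and apart from all treated groups. For POLQ the 3 HT29 groups stood above the 3 HTOXAR3 groups, and within each line neighbours overlapped.

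Across the 18 arrays RAD18 and POLK varied together most closely among the members (Pearson r = 0.904), followed by POLK with MAD2L2 (0.798) and MAD2L2 with RAD18 (0.741). POLH ran against POLQ (−0.609) and POLK (−0.566). These arrays share 6 group means, so the coefficients describe the groups and carry no test. Among 17406 other genes well above background on every array, MAD2L2 was most like TK1 (0.976), the thymidine kinase of S phase, and NCAPH2 (0.963), a condensin subunit. POLH was most like MORC4 (0.976) and MYO1D (0.967), POLK like ZNF621 (0.949) and CCAT1 (0.943), and REV3L like C1orf174 (0.958) and KITLG (0.947). POLQ was most like LOC100133299 (0.947) and LOC100128563 (0.938), POLI like EGLN3 (0.792) and BET1 (0.775), and REV1, over 17 arrays, like ZNF737 (0.88) and LINC01192 (0.828). For RAD18, ENST00000521815 (0.954) was among the closest.

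Of the partners of RAD18 at the clamp, UBE2A, which pairs with RAD18 to tag PCNA, had larger changes under the combination than any of the 8 members. It read 13.06, 13.01 and 12.87 in untreated HT29, 13.60, 13.58 and 13.43 after OXA and 14.29, 14.39 and 14.22 after the combination. In HTOXAR3 it read 13.03, 13.06 and 13.04, then 13.50, 13.43 and 13.54, then 14.37, 14.35 and 14.55. The groups of a line did not overlap at any step. Under the combination UBE2A rose by 1.32 in HT29 and 1.38 in HTOXAR3 (SE 0.08 each, adjusted p = 1.7e-07 and 1.5e-07), of which adding Curcumin to OXA gave 0.77 and 0.93. Its close relative UBE2B rose in HTOXAR3, by 0.38 with OXA and 0.52 with the combination (SE 0.07, adjusted p = 0.0179 and 0.000802), while in HT29 the changes were 0.24 and 0.07 (adjusted p = 0.253 and 1).

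PCNA itself was not called after OXA (−0.09 in HT29 and −0.30 in HTOXAR3) and fell with the combination, by 0.48 and 0.46 (SE 0.07, adjusted p = 0.00131 and 0.00216). SHPRH, a ligase that extends the ubiquitin chain on PCNA, fell by 0.49 after OXA in HT29 (−0.28 without a call in HTOXAR3) and by 0.53 and 0.41 under the combination in HT29 and HTOXAR3. HLTF, the other such ligase, was not well above background on any of the 18 arrays. USP1, which removes the ubiquitin tag, fell under the combination in HT29 by 0.31 (SE 0.06, adjusted p = 0.00797) and changed by −0.13 in HTOXAR3 (adjusted p = 1). UBE2N, which builds the chain with HLTF and SHPRH, fell after OXA by 0.70 and 0.56 and under the combination by 1.00 and 0.78 in HT29 and HTOXAR3. USP7, a deubiquitinase that acts on PCNA and RAD18 among many substrates, fell after OXA by 0.85 and 0.80.

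**Figure D4:**
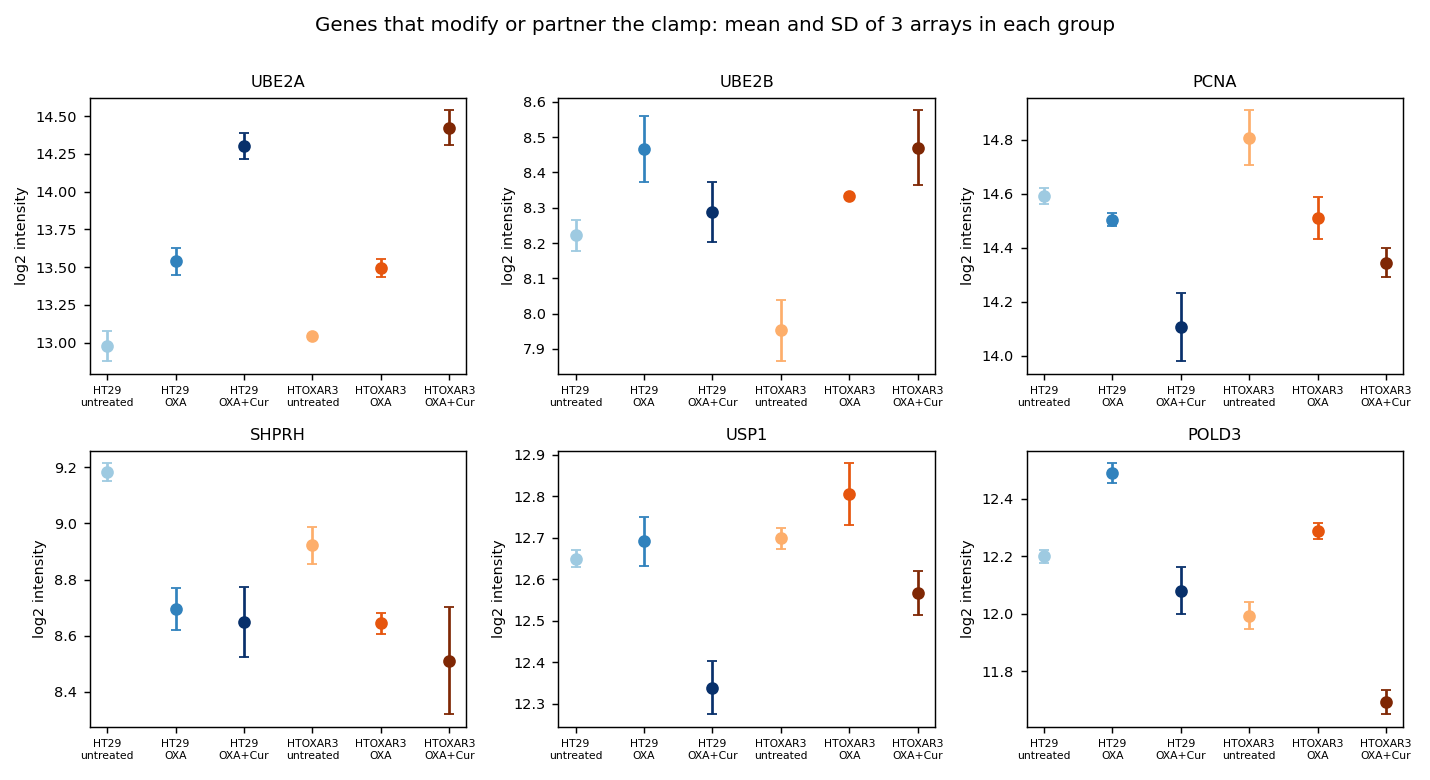
Mean log2 intensity with SD of 3 arrays for UBE2A, UBE2B, PCNA, SHPRH, USP1 and POLD3 in the 6 groups, each panel with its own vertical range. UBE2A rises from untreated through OXA to the combination in both lines (12.98, 13.54 and 14.30 in HT29), and PCNA and POLD3 are lowest in a combination group.

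Counted over the list of 26 genes of PCNA modification and damage tolerance, OXA raised 3 and lowered 6 in HT29 and raised 3 and lowered 3 in HTOXAR3, where 15.9% and 10.2% of all names were called, with median changes of 0.08 and 0.06 against −0.01 and 0.01 over all names. The combination raised 1 and lowered 8 in HT29 and raised 3 and lowered 7 in HTOXAR3, with median changes of −0.10 and −0.14 against −0.03 and −0.01 over all names (18.6% and 17.5% called). Adding Curcumin to OXA raised 2 and lowered 4 in HT29, where SPRTN, a protease that clears crosslinked proteins, rose by 0.48 (0.44 in HTOXAR3) and DTL, which directs loss of PCNA partners, fell by 0.42 (0.29 in HTOXAR3). In HTOXAR3 it raised 3 and lowered 3, the list's medians being −0.13 and −0.15 in the 2 lines (5.53% and 8.83% of names called, medians −0.02 and −0.02), with ZRANB3, a fork remodeller, falling by 0.74 and ATAD5, which unloads PCNA, falling by 0.48. In HT29 these were at −0.28 and −0.39 without a call. The untreated lines differed in 2 of the 26 (11.5% of all names), with RNF8, a ubiquitin ligase of the damage response, 0.56 higher and DDB1, the adaptor of a ligase family, 0.32 lower in HTOXAR3. RCHY1, another ubiquitin ligase, fell by 0.68 and 0.45 after OXA in HT29 and HTOXAR3, and ZRANB3 by 0.88 and 0.59 under the combination. No difference between the lines in a response to treatment was called for any gene of this list.

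Among 19 other DNA polymerase genes, OXA raised 8 in HT29 and 5 in HTOXAR3, where 8.33% and 5.31% of all names rose, with median changes of 0.27 and 0.12 against −0.01 and 0.01 over all names. The polymerase delta subunits POLD1 (0.75 and 0.68) and POLD4 (0.74 and 0.65) rose most in HT29 and HTOXAR3, POLE4 rose by 0.34 and 0.37, and PRIM1, the primase, rose by 0.47 in HT29 and was at 0.25 without a call in HTOXAR3. Of the subunits that polymerase zeta borrows, POLD3 rose by 0.29 in each line (SE 0.05, adjusted p = 0.00999 and 0.014) and POLD2 changed by 0.21 and 0.18 without a call. Adding Curcumin to OXA then lowered POLD3 by 0.41 and 0.59 and POLD2 by 0.47 and 0.35 in HT29 and HTOXAR3, all called (adjusted p between 5.5e-05 and 0.0444). In that comparison 6 of the 19 fell and 1 rose in HT29, and 5 fell and 1 rose in HTOXAR3 (2.39% and 4.41% of all names fell), with medians of −0.19 and −0.13 against −0.02 and −0.02. The single rise was POLD4 in both lines, by 0.49 in HT29 and 0.33 in HTOXAR3, while POLA1, the catalytic subunit of polymerase alpha, fell by 0.61 and 0.62. Under the combination against untreated cells 6 rose and 2 fell in HT29, and 3 rose and 3 fell in HTOXAR3 (18.6% and 17.5% of all names called), with POLD4 1.23 and 0.97 higher, POLB of base excision repair 0.42 and 0.47 higher and POLE2 0.46 and 0.43 lower. Untreated HTOXAR3 cells had POLE2 0.48 higher, POLD4 0.42 lower and POLM 0.39 lower than HT29, and no other called differences in this list.

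Of 5 genes of shieldin and its recruiters 4 were on the array. TP53BP1, which recruits the complex, rose by 0.31 with OXA in HT29 (0.18 without a call in HTOXAR3) and by 0.45 and 0.34 under the combination in HT29 and HTOXAR3, and SHLD1 fell by 0.38 under the combination in HTOXAR3 and was at −0.18 without a call in HT29. These were 1 and 0 of the 4 after OXA (15.9% and 10.2% of all names called) and 1 and 2 under the combination (18.6% and 17.5%). Among 9 partners of end resection and theta-mediated joining, XRCC1, a repair scaffold, rose (0.34 and 0.31) and FEN1, the flap nuclease, fell (0.45 and 0.54) after OXA in HT29 and HTOXAR3, 2 of the 9 in each line. Under the combination 6 of the 9 fell in HT29 and 4 in HTOXAR3 (18.6% and 17.5% of all names called either way), with FEN1 0.73 and 0.77 lower and PARP1 0.52 and 0.62 lower, NBN 0.53 and 0.50 lower and MRE11 0.49 and 0.55 lower. Adding Curcumin to OXA lowered 2 of the 9 in each line (2.39% and 4.41% of all names), among them NBN (0.54 and 0.56).

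Cell cycle genes moved in the same samples. Of 16 genes of G2 and mitosis, 12 fell after OXA in each line (15.9% and 10.2% of all names were called either way), and 16 of 16 fell under the combination in each line (18.6% and 17.5%), with medians of −0.48, −0.43, −0.71 and −0.69 against −0.01, 0.01, −0.03 and −0.01 over all names. KIF20A fell by 1.48 and 1.51 and CENPE by 1.38 and 1.19 under the combination in HT29 and HTOXAR3. Of 21 genes of replication and S phase, 3 rose and 2 fell in HT29 and 1 fell in HTOXAR3 after OXA, against 15.9% and 10.2% of all names called, with list medians of 0.09 and 0.11. MCM6 fell by 0.79 and 0.86. Under the combination 10 fell in HT29, and 7 fell and 1 rose in HTOXAR3 (18.6% and 17.5% of all names called), with list medians of −0.35 and −0.17. Adding Curcumin to OXA lowered 12 in HT29 and 9 in HTOXAR3, with MCM7 0.59 and 0.65 lower, and lowered 1 and 7 of the G2 and mitosis genes, where 2.39% and 4.41% of all names fell. In untreated cells CCNE1, GINS2 and CCNB1 were higher in HTOXAR3, by 0.37, 0.37 and 0.31, as the called genes of these lists, 2 of 21 and 1 of 16 (11.5% of all names). The part of the cell cycle in the changes of the translesion genes was not tested.

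The sequence before the start of the 4 genes called after OXA is shown because 3 of them rose together after OXA. All 8 members had an entry in the RefSeq table of GRCh38.p14, 10 starts in all. The 250 bases before each start are written 5′ to 3′ on the strand of the gene, with capitals for matches on either strand to the strings searched. These were the GC box GGGCGG, the CCAAT box, the ETS core CGGAAG, the E2F strings TTTGGCGC and TTTCCCGC, the core TGACG of the cyclic AMP response element, the E box CACGTG and the motif of NRF1, and matches overlap where the capitals run on.
RAD18, chr3:8963473-8963722, minus strand: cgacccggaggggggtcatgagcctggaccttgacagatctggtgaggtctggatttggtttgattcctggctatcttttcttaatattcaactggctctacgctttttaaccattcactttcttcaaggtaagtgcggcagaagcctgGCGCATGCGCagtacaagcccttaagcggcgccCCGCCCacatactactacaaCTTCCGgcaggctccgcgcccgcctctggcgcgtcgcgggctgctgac
POLK, chr5:75511641-75511890, plus strand: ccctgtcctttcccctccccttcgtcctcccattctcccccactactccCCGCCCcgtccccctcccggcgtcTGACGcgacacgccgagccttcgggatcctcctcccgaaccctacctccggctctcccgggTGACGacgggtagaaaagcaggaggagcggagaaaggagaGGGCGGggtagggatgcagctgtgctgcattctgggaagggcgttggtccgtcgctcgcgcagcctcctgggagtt
MAD2L2, first start, chr1:11691560-11691809, minus strand: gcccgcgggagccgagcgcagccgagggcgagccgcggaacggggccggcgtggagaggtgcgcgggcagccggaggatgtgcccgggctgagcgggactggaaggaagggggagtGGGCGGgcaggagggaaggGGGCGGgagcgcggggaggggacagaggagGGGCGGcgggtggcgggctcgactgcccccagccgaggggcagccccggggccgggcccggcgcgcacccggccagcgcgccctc
MAD2L2, second start, chr1:11681149-11681398, minus strand: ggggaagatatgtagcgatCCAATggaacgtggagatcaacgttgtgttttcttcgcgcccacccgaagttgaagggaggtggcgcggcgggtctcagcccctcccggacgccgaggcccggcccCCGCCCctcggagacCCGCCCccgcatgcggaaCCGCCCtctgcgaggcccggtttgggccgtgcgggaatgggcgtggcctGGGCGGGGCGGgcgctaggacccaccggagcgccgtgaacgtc
POLH, chr6:43575935-43576184, plus strand: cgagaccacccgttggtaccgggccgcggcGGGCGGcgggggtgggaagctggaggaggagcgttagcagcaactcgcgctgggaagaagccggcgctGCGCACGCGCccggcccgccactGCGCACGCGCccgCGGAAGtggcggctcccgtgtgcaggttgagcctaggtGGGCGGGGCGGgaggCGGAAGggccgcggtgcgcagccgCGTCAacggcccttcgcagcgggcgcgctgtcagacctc

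GGGCGG was present before all 4 of these genes and before 7 of the 8 members, and 42.6% of the 35116 starts in the table have it. RAD18 and POLH both held the NRF1 motif (5.07% of starts) and CGGAAG (16.5%), while POLK held TGACG 2 times (21.2% of starts) and POLH 1 time. The NRF1 motif was also found before REV1, and the ETS core before POLI and POLQ, none of which had a called change after OXA. CCAAT was found at the second MAD2L2 start alone among the members (32% of starts). TTTGGCGC was found before 0 of the 8 (0.55% of starts), and TTTCCCGC before POLI and REV3L (1.39%), 2 genes without a called change after OXA. GGGCGG was the only string of this list found before each of RAD18, POLK and MAD2L2, and POLH, which fell, had it too. GC content was 56.8% for RAD18, 67.2% for POLK, 81.6% and 70.8% for MAD2L2 and 76% for POLH, against a median of 58% over all starts. A match describes these letters only.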

How the data were processed

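Total RNA of HT29 and HTOXAR3 cells was labelled with Cy3 and hybridised to 18 one-colour arrays, 3 per group. The authors deposited scanner output of Feature Extraction 10.7.3.1, in which the mean spot intensity and the median local background intensity are linear and not normalised between arrays. The submitters' processing notes name limma with no version. The deposited series table was not used, since its lines carry no probe or gene name.

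Here intensities were corrected by normexp (offset 0) on all 62976 spots, control spots were dropped, and log2 values were quantile normalised. Outlier spots by the scanner's flag were left out before repeat spots of a probe were averaged. All 36204 gene names and all 18 arrays entered 1 limma model (limma 3.58.1, R 4.3.3) that has a mean for each of the 6 groups, and p-values were adjusted by Benjamini-Yekutieli over all names in each comparison. The fit was tested on simulated data. Figures and sequences were made in Python 3.11.15 with matplotlib 3.10.9 and pandas 2.3.3. Precision is limited by the number of arrays. The labels call the replicates biological without naming separate cultures, so p-values measure the spread between these arrays.

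Replicate numbers are shared by all groups. Deviations of same-numbered arrays correlated above 0.1 for all 3 pairs in 2 comparisons, namely the OXA response of HT29 (0.118 to 0.241) and Curcumin added to OXA in HTOXAR3 (0.108 to 0.194). They did not in the other comparisons within a line or in that of the untreated lines, and treated groups were not compared between the lines in this way. The members and gene lists were chosen with earlier results of these data known. The text names the members and their probes, 8 set partners (PCNA, UBE2A, UBE2B, HLTF, SHPRH, USP1, POLD2, POLD3), genes from the 3 largest called changes of each list and comparison, and the 2 genes most like each member, except that some names and the values that need them are not reported here. Gene names follow the array annotation, updated through a RefSeq table.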

Additional observations from a re-analysis of the deposited data

How the results depend on the processing

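Of the 1614 alternative values of single members, 1481 kept their direction and their side of the threshold, 73 lost a call with the sign kept, 3 gained one and 57 changed sign, 3 of these being called changes of MAD2L2 read on a dimmer probe. A fold limit above 2 left 0 members called in every untreated, OXA, combination and Curcumin comparison. A model of only the groups compared, with fewer arrays for the spread, called 0 members in untreated cells (1258 names in place of 4177), 2 for OXA (1338 in place of 5774) and 1 for the combination (2056 in place of 6724) in HT29, 0 for OXA (592 in place of 3709) and 2 for the combination (3013 in place of 6322) in HTOXAR3, and 0 for the addition of Curcumin in HT29 (16 in place of 2002) or HTOXAR3 (223 in place of 3198). Averaging a gene's probes left 1 call for the addition of Curcumin in HT29 and 0 in HTOXAR3, and took MAD2L2 from the 4 for OXA in HT29 and POLK from the 3 for the combination in HTOXAR3. The Benjamini-Hochberg adjustment gave 1 call for the line difference in the combination response. Leaving out an array in turn, the members called were between 1 and 2 in untreated cells, 1 and 2 for the combination in HT29 and 0 and 2 for the addition of Curcumin in HT29, and the counts of 4 and 3 for OXA did not move. With the replicate number as a block, the OXA and Curcumin counts were as in the report, the combination in HTOXAR3 had 2 calls in place of 3 (POLK lost), REV1 after OXA in HT29 went to −0.020, and no other member call changed. Scaling to the 75th percentile moved the median of all names by as much as −0.20 (processed signal, OXA in HTOXAR3), and no called member changed sign under it. The cause of the lost calls was not tested.

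The other 54 sign changes were in changes that had not been called, of at most 0.25 in size. With the slide as a fixed block MAD2L2 in untreated cells was 0.0094, POLQ for the combination in HT29 −0.014, and POLK line differences 0.017 for OXA, 0.062 for the combination and 0.045 for Curcumin. With the processed signal POLI and POLQ for the combination in HT29 were 0.012 and −0.011, POLK line differences 0.0040, 0.020 and 0.016 and the POLQ line difference for the combination 0.0028. With normexp scaled to the 75th percentile POLI for the combination in HT29 was 0.0065, POLQ for that in HTOXAR3 0.023, and POLK line differences 0.0015 for the combination and 0.011 for Curcumin. The mean of all probes gave MAD2L2 line differences of 0.28 for OXA and 0.23 for the combination. On its own, A_33_P3359253 turned the called MAD2L2 changes in HT29 to −0.24 for OXA and 0.029 for Curcumin, without a call, and gave −0.21 for the combination there and line differences of 0.81 and 0.60 for OXA and the combination, which rest, as do those of the averaged probes, on untreated HTOXAR3 arrays where this probe was not well above background. A_33_P3359250 turned the called change for Curcumin in HTOXAR3 to 0.036, without a call, and gave line differences of 0.15 (OXA), 0.30 (combination) and 0.15 (Curcumin), and A_23_P422718 gave POLH 0.030 for Curcumin in HT29.

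Leaving out an array in turn, the sign changed for MAD2L2 in untreated cells (−0.036 to 0.0026) and for the combination in HTOXAR3 (−0.037 to 0.085), POLH for Curcumin in HT29 (−0.11 to 0.027), POLI for the combination in HT29 (−0.13 to 0.076), POLQ for OXA in HTOXAR3 (−0.0056 to 0.14) and REV1 for OXA in HT29 (−0.13 to 0.15). Line differences changed sign in OXA for POLK (−0.082 to 0.033) and REV1 (−0.066 to 0.22), in the combination for POLK (−0.090 to 0.00090) and REV1 (−0.028 to 0.26), and in Curcumin for POLI (−0.040 to 0.11), POLK (−0.075 to 0.040), POLQ (−0.036 to 0.20), REV1 (−0.013 to 0.11) and REV3L (−0.032 to 0.058).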
